A study of Mus musculus with 4 samples.

Results

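The genes described here are 40 nucleolar and growth genes known to depend on the transcription factor MYC, taken from a list of names drawn up with earlier results of these data known. All 40 were found among the 55401 genes of the count table, and all 40 passed the filter on low counts that left 15341 genes for testing. The 4 libraries of polyadenylated RNA came from R1, a line of mouse embryonic stem cells: 2 from control cells of genotype WT and 2 from cells of genotype Usp28 KO. Both groups were kept in the culture called 2i/LIF, which is N2B27 medium over 0.2% gelatin with leukaemia inhibitory factor (10 ng/ml) and inhibitors of the kinases MEK (1 μM PD0325901) and GSK3 (3 μM CHIR99021). Usp28 encodes a deubiquitinase, an enzyme that takes ubiquitin off other proteins. How the gene was knocked out, and whether the cells are 1 clone or several, is not stated in the labels.

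As background, ribosomes are built in the nucleolus, where RNA polymerase I makes the ribosomal RNA precursor and a large set of assembly factors cuts, modifies and folds it. MYC with its partner MAX binds E-box sequences near many of these genes and raises their transcription, together with genes for polyamine and nucleotide synthesis. Fast-dividing embryonic stem cells express this programme strongly. USP28 is known to counter the FBXW7 ubiquitin ligase, for which MYC is a substrate.

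The libraries held 16595196 to 19533608 counts. The targeted gene, Usp28, had 3690 and 3120 counts in the control libraries. In those labelled Usp28 KO it had 3392 and 3319. Per 1000000 counts of the scaled library (CPM) it stood at 189 and 197 in control and 181 and 177 in Usp28 KO libraries. The log2 fold change was -0.11 with a standard error of 0.15 (edgeR, adjusted p = 0.857). The gene-level count of Usp28 thus does not check the label. Directions below are between libraries as labelled. All 8 pluripotent stem cell markers were expressed, with a summed level of 5106 to 5116 CPM in control and 4606 to 4710.2 CPM in Usp28 KO libraries. The 8 fibroblast markers summed to 1.64 to 1.94 CPM in control and 1.60 to 1.71 CPM in Usp28 KO libraries, with Postn, Lum and Dcn at 0 in every library. The 5 trophoblast markers summed to 0.461 to 0.960 CPM over all libraries. The sums were 8.20 to 11.6 CPM in control and 11.6 to 12.2 CPM in Usp28 KO libraries for 7 endoderm markers (Afp at 0), 15.3 to 21.5 and 15.1 to 22.0 CPM for 5 mesoderm markers, and 81.3 to 120 and 92.1 to 93.1 CPM for 5 neural markers. In bulk RNA, a lower level may mean less RNA per cell or fewer cells of a type, which cannot be told apart, and a change in the total RNA of a cell is not seen after library scaling.

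The sequence that MYC and MAX are known for, the E-box CACGTG, was searched within 250 bases before and 50 bases after the RefSeq start sites on GRCm38.p6. A window was present for 33 members, and not for Bop1, Fbl, Npm1, Rrp12, Rrs1, Srm and Tcof1. The E-box reads the same on both strands. This and the motifs below were picked with the members' values known. The E-box was present in 13 of the 33 genes (39.4%), against 15 of 89 other ribosome assembly genes (16.9%), 1185 of 10067 protein-coding genes tested (11.8%) and 2187 of 27025 genes with a window (8.09%). Binding near MYC-type sites is part of why such genes are called MYC-dependent, so this share is a description of the list. Stretches of up to 30 bases around the first E-box in each gene are shown so that the shared core, in capitals, and the differing flanks can be compared.
Apex1, chr14:50924913-50924942, plus strand: gcgctccagaacCACGTGggggcggagccc
Eif4a1, chr11:69672595-69672624, minus strand: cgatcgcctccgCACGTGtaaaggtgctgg
Eif4e, chr3:138527028-138527057, plus strand: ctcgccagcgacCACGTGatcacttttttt
Grwd1, chr7:45830740-45830767, minus strand: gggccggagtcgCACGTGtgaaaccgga
Imp4, chr1:34439696-34439725, plus strand: acggtcttagacCACGTGacatcccaaatc
Mybbp1a, chr11:72441355-72441376, plus strand: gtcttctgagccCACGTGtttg
Nme1, chr11:93968273-93968302, minus strand: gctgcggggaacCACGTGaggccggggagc
Nop2, chr6:125131811-125131840, plus strand: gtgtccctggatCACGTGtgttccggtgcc
Pes1, chr11:3963965-3963994, plus strand: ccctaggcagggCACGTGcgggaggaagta
Phb, chr11:95666713-95666742, plus strand: ttgaggaataggCACGTGcatatattacca
Ran, chr5:129020026-129020055, plus strand: gctcggccggccCACGTGacccgccgcccc
Utp20, chr10:88826765-88826789, minus strand: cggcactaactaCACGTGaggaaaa
Wdr43, chr17:71616220-71616249, plus strand: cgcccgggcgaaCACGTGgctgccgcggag

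The first base of these E-boxes lay before the start site of the window in Eif4e (228 bases), Phb (232), Eif4a1 (189), Imp4 (121), Ran (118), Nop2 (60), Apex1 (24) and Nme1 (18, or 29 from another start). It lay after it, counting the start as 1, in Pes1 (3), Wdr43 (18), Grwd1 (35), Utp20 (38) and Mybbp1a (41). Apex1 held 3 E-boxes in its window and Eif4e held 2. The related motif CACGCG, searched on both strands and able to overlap the E-box, was present in 11 of the 33 genes (33.3%), against 34.8% of the other ribosome assembly genes and 20.4% of protein-coding genes tested. Also on both strands, the GC box GGGCGG was present in 25 (75.8%), against 66.3% and 70.2%, and the TATA motif TATAAA in 2 (6.06%), against 4.49% and 8.37%. The stretches before the start are shown for 2 members, one without and one with an E-box. Capitals mark the GC box in both, and also the E-box in Nop2.
Nop58, chr1:59684756-59684970, plus strand: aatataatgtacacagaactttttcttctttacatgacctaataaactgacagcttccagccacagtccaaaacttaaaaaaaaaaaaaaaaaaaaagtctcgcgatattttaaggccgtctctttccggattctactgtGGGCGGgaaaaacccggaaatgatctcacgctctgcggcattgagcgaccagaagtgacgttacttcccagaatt
Nop2, chr6:125131633-125131882, plus strand: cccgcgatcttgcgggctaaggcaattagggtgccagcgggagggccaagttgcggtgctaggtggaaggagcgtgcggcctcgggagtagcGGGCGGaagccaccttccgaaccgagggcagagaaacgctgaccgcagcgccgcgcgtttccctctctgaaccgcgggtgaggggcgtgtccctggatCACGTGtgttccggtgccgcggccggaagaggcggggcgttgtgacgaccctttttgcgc

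Among members, levels per kilobase of exon spanned a wide range. The mean over the 4 libraries was 934 CPM per kilobase for Npm1, 280.1 for the RNA helicase gene Eif4a1, 232 for Ncl, 232 for Ran and 127 for Mybbp1a. The lowest were Tfb2m (5.10 CPM per kilobase), Tert (5.91) and Nme1 (6.01). Nme1 shares 418 of its 3342 exon bases with Gm20390 on the same strand, so its place in this order is uncertain. The exon length counts every annotated exon, so genes with long alternative exons, such as Ncl and Nop58, are placed lower by it. Together the members took 1.44% and 1.38% of the counts of the control libraries and 1.31% and 1.27% of those of the Usp28 KO libraries.

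Between the groups the members differed little, and most lay slightly lower in the Usp28 KO libraries. With edgeR's quasi-likelihood test and Benjamini-Hochberg adjustment at a threshold of 0.05, 0 of 40 members and 0.0% of all genes tested passed in either direction. The smallest adjusted p of a member was 0.384. On counts simulated without any pattern by replicate number or GC content, the same fit called only 8 of 50 genes changed 1.5-fold. That is a larger change than that of any member. The lack of calls therefore does not show that no member changed. At an unadjusted p under 0.05, 2 members were lower (Nop58 and Utp20) and 0 higher, against 4.34% of all genes lower and 6.86% higher. DESeq2 and limma-voom also called 0 members, against 0.687% of all genes higher and 0.393% lower by DESeq2 and 0.0% each way by limma-voom. At an unadjusted p under 0.05, DESeq2 had 3 members lower and 0 higher, against 3.51% and 4.54% of all genes. With limma-voom 2 were lower and 0 higher, against 4.3% and 6.85%.

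The log2 fold change, Usp28 KO minus control, was below 0 in 31 of 40 members (77.5%), against 50.6% of all genes tested and 56.8% of the 9316 genes averaging at least 10 CPM, a level that every member reached and that was set after the values were seen. The members' median was -0.18, a level 11.5% lower, with values from -0.43 to 0.29. The median of all genes tested was -0.0040, and that of genes at 10 CPM or more was -0.037. Standard errors ran from 0.15 to 0.25, and 19 members had a fold change smaller than their own standard error. Without control replicate 1 the members' median was -0.10. The groups did not overlap in 19 members: 18 were lower (45.0%, against 20.4% of all genes tested and 23.5% of genes at 10 CPM or more), and 1, Tert, was higher (2.5%, against 21.4% and 16.1%). With upper-quartile scaling 11 members were lower without overlap, against 15.0% of all genes. Mitochondrially encoded genes took 2.77% (replicate 1) and 5.65% (replicate 2) of control counts, against 1.92% and 3.33% of Usp28 KO counts. With those genes left out before scaling, the members' median was -0.19, with 31 below 0. The part of that share in the members' values was otherwise not tested.

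**Figure D1:**
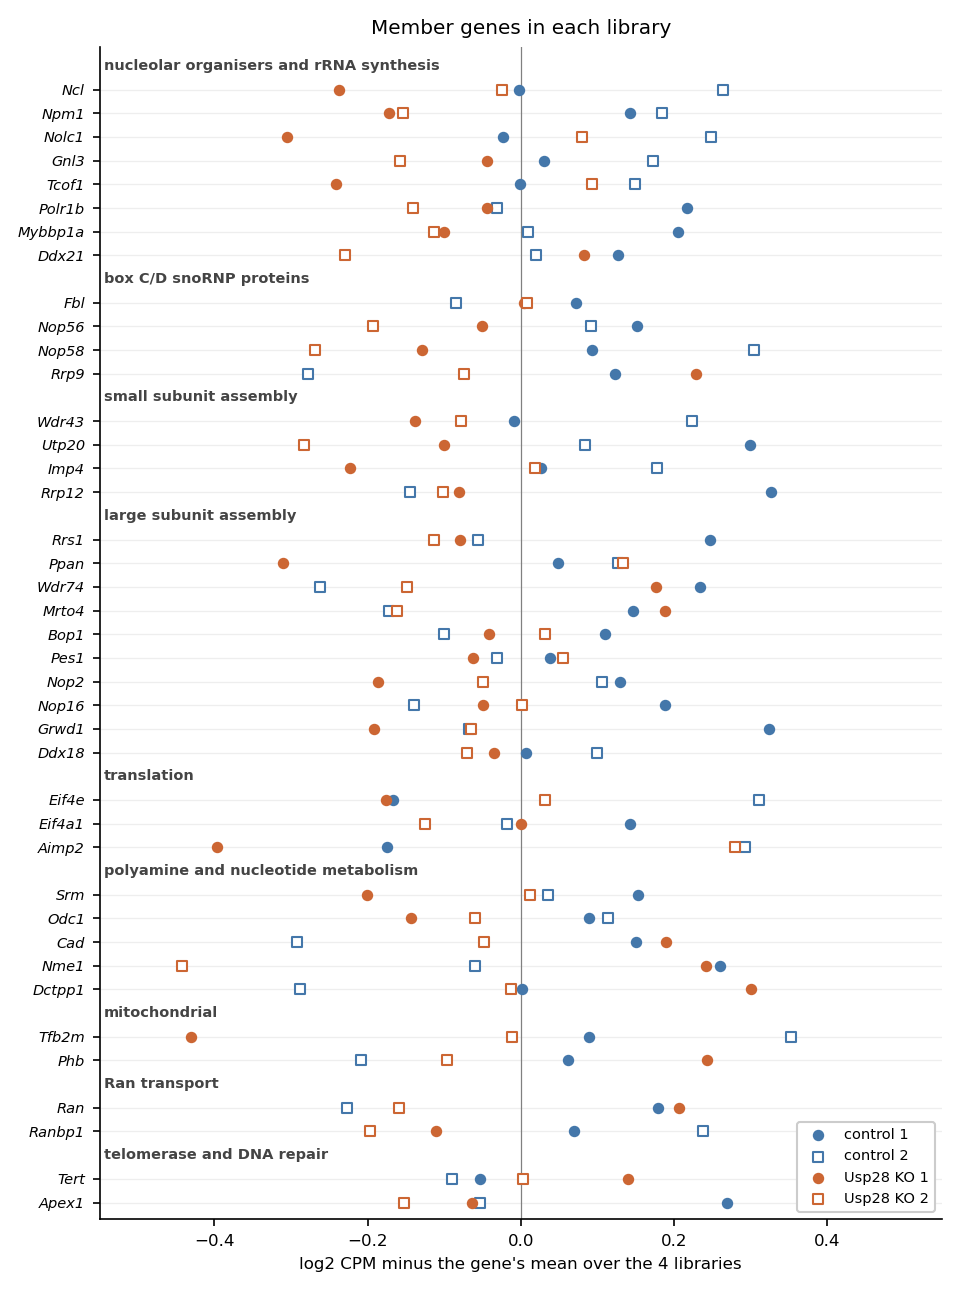
Level of each of the 40 members in each library, as log2 CPM minus the gene's mean over the 4 libraries; filled circles are replicate 1 and open squares replicate 2, control in blue and Usp28 KO in orange. Both control points lie to the right of both Usp28 KO points in 18 genes, and to the left in Tert.

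No library was low in all members. Control replicate 1 was the highest library for 17 members and control replicate 2 for 14, while control replicate 2 was also the lowest for 12. Usp28 KO replicates 1 and 2 were the lowest for 15 and 13 members and the highest for 7 and 2. Control replicate 1 was the lowest for 0.

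The 8 genes of nucleolar organisation and ribosomal RNA synthesis all had log2 fold changes below 0, from -0.33 to -0.14 (median -0.21), and 0 of 8 passed the test. Npm1 (ENSMUSG00000057113, chromosome 11, 33152287 to 33163206) encodes nucleophosmin, a nucleolar scaffold and histone chaperone. Here and below, the values of each group are given with replicate 1 first. Npm1 stood at 2729.6 and 2809 CPM in control and 2194 and 2223 CPM in Usp28 KO libraries. The groups did not overlap, and replicates lay far closer to each other than the groups did. The log2 fold change was -0.33 ± 0.18 (standard error; edgeR, adjusted p = 0.533), and it ranged from -0.35 to -0.32 with any library left out. After the correction for GC content described below it was -0.25.

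Ncl (ENSMUSG00000026234, chromosome 1, 86344719 to 86359400) encodes nucleolin, which acts in ribosomal RNA transcription and processing. It stood at 2342 and 2819 CPM in control and 1990.4 and 2308 CPM in Usp28 KO libraries. The lowest control library and the highest Usp28 KO library nearly met, and the log2 fold change was -0.26 ± 0.19 (edgeR, adjusted p = 0.657). Mybbp1a, a nucleolar regulator of transcription, stood at 843 and 736 CPM in control and 682 and 676 CPM in Usp28 KO libraries (-0.22 ± 0.17; edgeR, adjusted p = 0.686). Its groups did not overlap either, with most of the spread in the control pair.

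In Gnl3 (nucleostemin, a nucleolar GTP-binding protein) and Polr1b (a core subunit of RNA polymerase I) the groups also did not overlap, with log2 fold changes of -0.20 ± 0.16 and -0.18 ± 0.16. Nolc1, a chaperone of small nucleolar ribonucleoproteins, had -0.22 ± 0.19. Tcof1, needed for ribosomal RNA gene transcription, had -0.14 ± 0.17 (0.016 without Usp28 KO replicate 1), and the helicase gene Ddx21 had -0.14 ± 0.17. The groups overlapped in these 3.

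The box C/D small nucleolar ribonucleoprotein places ribose methyl groups on ribosomal RNA. The 4 genes for proteins of it or of a related particle had log2 fold changes from -0.40 to 0.15, and 0 of 4 passed the test. Nop58 (ENSMUSG00000026020, chromosome 1, 59684971 to 59719044), a core protein, stood at 329 and 381 CPM in control and 282 and 256 CPM in Usp28 KO libraries. Every control value was above every Usp28 KO value, and the log2 fold change of -0.40 ± 0.17 gave the smallest p of the 40 members (edgeR, adjusted p = 0.384). Its core partner Nop56 (ENSMUSG00000027405, chromosome 2, 130274430 to 130279313) stood at 390.0 and 374 CPM in control and 339 and 307 CPM in Usp28 KO libraries (-0.24 ± 0.16; edgeR, adjusted p = 0.630).

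Fbl (ENSMUSG00000046865, chromosome 7, 28169710 to 28179269), the methyltransferase of that complex, stood at 323 and 289.6 CPM in control and 308 and 309 CPM in Usp28 KO libraries. Both Usp28 KO values lay between the control values, and the log2 fold change was 0.01 ± 0.16 (edgeR, adjusted p = 0.992), from -0.07 to 0.09 with a library left out. Rrp9, a protein of the related particle that guides small subunit processing, had 0.15 ± 0.18 with overlapping groups. That value was -0.046 with control replicate 2 left out and -0.013 when Usp28 KO replicate 1 was left out. The difference between Fbl and its partners was not tested.

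All 4 small subunit assembly genes had log2 fold changes below 0, from -0.38 to -0.20 (median -0.21), and 0 of 4 passed. Utp20 (ENSMUSG00000004356, chromosome 10, 88746607 to 88826804), a scaffold protein of the small subunit processome, stood at 331 and 285 CPM in control and 251 and 221 CPM in Usp28 KO libraries. The groups did not overlap, and the log2 fold change was -0.38 ± 0.17 (edgeR, adjusted p = 0.411), from -0.50 to -0.27 with a library left out. Wdr43, another processome protein, stood at 257 and 302 CPM in control and 235 and 245 CPM in Usp28 KO libraries (-0.22 ± 0.16; edgeR, adjusted p = 0.673). Imp4 and the ribosome export factor gene Rrp12 had -0.20 ± 0.17 and -0.20 ± 0.18. The Rrp12 control libraries stood at 134 and 96.7 CPM on either side of both Usp28 KO libraries, at 101 and 99.6 CPM, and without control replicate 1 its log2 fold change was 0.053.

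The 10 large subunit assembly genes had a median log2 fold change of -0.085, with values from -0.27 to 0.03. The median was -0.01 without control replicate 1 and -0.18 without control replicate 2. The groups did not overlap in 3 of the 10 (30.0%), all lower, and 0 of 10 passed. Of all genes tested 20.4% were lower without overlap, and of genes at 10 CPM or more 23.5%. Nop2, a ribosomal RNA methyltransferase, stood at 188 and 185 CPM in control and 151 and 166 CPM in Usp28 KO libraries (-0.23 ± 0.15; edgeR, adjusted p = 0.630). Rrs1, which brings a small ribosomal RNA into the large subunit, stood at 104 and 84.3 CPM in control and 82.9 and 81.0 CPM in Usp28 KO libraries (-0.20 ± 0.17; edgeR, adjusted p = 0.702). The control libraries of Rrs1 lay further apart than the groups did at their nearest.

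Grwd1, a histone-binding assembly factor, had the lowest fold change of these 10, at -0.27 ± 0.18 (edgeR, adjusted p = 0.624), yet its groups overlapped. It stood at 86.8 and 66.2 CPM in control and 60.7 and 66.3 CPM in Usp28 KO libraries, and its log2 fold change was -0.06 without control replicate 1. Pes1 and Bop1, whose proteins act in 1 complex in large subunit maturation, had -0.01 ± 0.16 each. The log2 fold changes of Ppan, Ddx18, Nop16, Wdr74 and Mrto4 were -0.16, -0.11, -0.06, 0.01 and 0.03, of which only the helicase gene Ddx18 had groups that did not overlap.

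The 3 translation genes had log2 fold changes of -0.16 to -0.10, all smaller than their standard errors, with overlapping groups. Eif4e, the cap-binding protein that starts translation, stood at 163 and 227 CPM in control and 162 and 187 CPM in Usp28 KO libraries (-0.16 ± 0.18; edgeR, adjusted p = 0.799). Its control libraries alone spanned the whole Usp28 KO range but for a narrow edge, and without control replicate 2 the value was 0.084. Eif4a1, the helicase that works with it, stood at 1337 and 1196 CPM in control and 1212 and 1111 CPM in Usp28 KO libraries (-0.12 ± 0.17; edgeR, adjusted p = 0.849). Aimp2, a scaffold of the tRNA synthetase complex, had -0.10 ± 0.23, and 0.15 without control replicate 2 or 0.20 without Usp28 KO replicate 1.

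Among the 5 polyamine and nucleotide genes, the polyamine pair lay lower and the nucleotide genes were mixed, and 0 of 5 passed. Odc1 (ENSMUSG00000011179, chromosome 12, 17544794 to 17551505), ornithine decarboxylase, the rate-limiting enzyme of polyamine synthesis, stood at 356 and 362 CPM in control and 303 and 321 CPM in Usp28 KO libraries. The groups did not overlap and the control libraries were close together; the log2 fold change was -0.20 ± 0.16 (edgeR, adjusted p = 0.686). Srm, spermidine synthase, stood at 128 and 118 CPM in control and 100.1 and 116 CPM in Usp28 KO libraries (-0.19 ± 0.16; edgeR, adjusted p = 0.723).

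Cad (ENSMUSG00000013629, chromosome 5, 31054780 to 31078479), the enzyme that begins pyrimidine synthesis, stood at 507 and 373 CPM in control and 521 and 442 CPM in Usp28 KO libraries. The replicates of each group lay further apart than the group means, and the log2 fold change was 0.13 ± 0.19 (edgeR, adjusted p = 0.860), or -0.09 without control replicate 2. Dctpp1, which removes excess dCTP and related nucleotides, had the highest value of the 40 members. It stood at 69.8 and 57.1 CPM in control and 85.9 and 69.1 CPM in Usp28 KO libraries, with overlapping groups (0.29 ± 0.18; edgeR, adjusted p = 0.604). Nme1, a nucleoside diphosphate kinase, had -0.17 ± 0.25, and 0.13 without Usp28 KO replicate 2.

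The remaining 6 members form 3 pairs. Tfb2m, a mitochondrial transcription factor gene, had the lowest value of all members and also the lowest level, at 14.9 and 17.9 CPM in control and 10.4 and 13.9 CPM in Usp28 KO libraries (-0.43 ± 0.23; edgeR, adjusted p = 0.539). The mitochondrial prohibitin gene Phb stood at 164 and 136 CPM in control and 186 and 147 CPM in Usp28 KO libraries (0.15 ± 0.18; edgeR, adjusted p = 0.802), and at -0.029 on the log2 scale without Usp28 KO replicate 1. The groups of Tfb2m did not overlap and those of Phb did.

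Ranbp1 (ENSMUSG00000005732, chromosome 16, 18239784 to 18248732), a partner of the nuclear transport GTPase Ran, stood at 137 and 154 CPM in control and 121 and 114 CPM in Usp28 KO libraries. Its groups did not overlap (-0.31 ± 0.16; edgeR, adjusted p = 0.503). Ran itself stood at 688 and 519 CPM in control and 701 and 544 CPM in Usp28 KO libraries. In both groups replicate 1 was well above replicate 2, and the log2 fold change was 0.04 ± 0.20 (edgeR, adjusted p = 0.965), or -0.15 without control replicate 2 or without Usp28 KO replicate 1.

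Tert (ENSMUSG00000021611, chromosome 13, 73626911 to 73649843), the catalytic subunit of telomerase, stood at 32.6 and 31.8 CPM in control and 37.3 and 33.9 CPM in Usp28 KO libraries. Both Usp28 KO values were above both control values, but by less than the standard error of the log2 fold change, 0.14 ± 0.18 (edgeR, adjusted p = 0.824). Apex1, an endonuclease of base excision repair, stood at 71.5 and 57.2 CPM in control and 56.8 and 53.4 CPM in Usp28 KO libraries (-0.22 ± 0.17; edgeR, adjusted p = 0.686). Its groups were apart by a narrow margin.

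**Figure D2:**
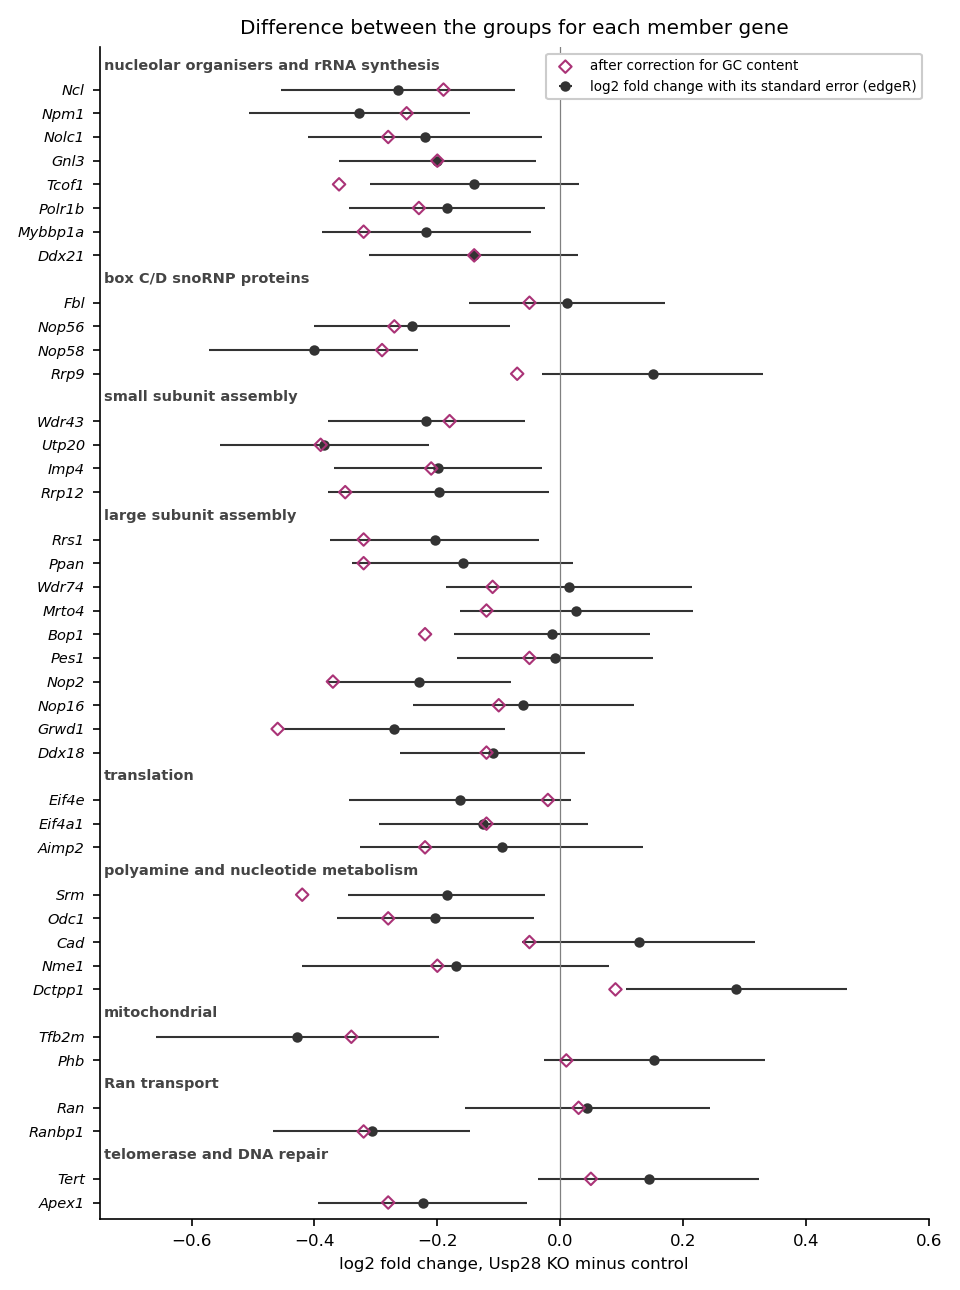
Log2 fold change (Usp28 KO minus control) of each member from edgeR, as points with bars of 1 standard error either side, and the value after GC correction as open diamonds. Of 40 points, 31 lie below 0, and 36 diamonds do.

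A second list of 102 genes for other ribosome assembly factors and subunits and cofactors of RNA polymerase I was set beside the members. All 102 were tested, and 0 were called in either direction, as were 0.0% of all genes tested (edgeR). At an unadjusted p under 0.05 there were 4 lower and 0 higher, against 4.34% and 6.86% of all genes. Their log2 fold changes were below 0 in 82 (80.4%, against 50.6% of all genes tested and 56.8% at 10 CPM or more). The median was -0.14, against -0.037 for genes at 10 CPM or more. The groups did not overlap in 43 that were lower (42.2%, against 20.4% of all genes and 23.5% at 10 CPM or more). They also did not overlap in 3 that were higher (2.94%, against 21.4% and 16.1%). The members' values thus lay near those of the wider pathway, and no test of the difference was made. The lowest p belonged to Rpf1, a large subunit assembly factor, at 62.9 and 76.6 CPM in control and 43.8 and 54.0 CPM in Usp28 KO libraries (-0.51 ± 0.18; edgeR, adjusted p = 0.322). Noc3l stood at 75.2 and 76.2 CPM against 57.1 and 53.8 CPM (-0.45 ± 0.16; edgeR, adjusted p = 0.322). Nifk, a nucleolar RNA-binding protein, stood at 91.6 and 94.2 CPM against 70.1 and 70.4 CPM (-0.40 ± 0.16; edgeR, adjusted p = 0.357).

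In these 3 genes the groups did not overlap. On the other side, the genes with the smallest p were Nop10, Imp3 and the polymerase subunit gene Polr1d, with log2 fold changes of 0.21 ± 0.18, 0.23 ± 0.22 and 0.22 ± 0.23. Nop10, of the particles that make pseudouridine, stood at 63.3 and 49.8 CPM in control and 71.2 and 59.3 CPM in Usp28 KO libraries. Imp3 stood at 38.1 and 27.9 CPM against 45.8 and 31.6 CPM, and Polr1d at 55.1 and 60.6 CPM against 85.5 and 49.3 CPM. The groups of all 3 overlapped.

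**Figure D3:**
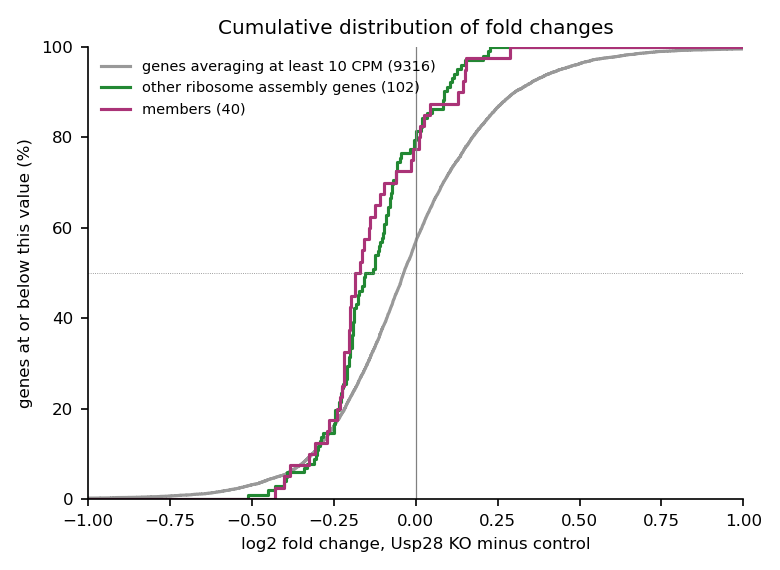
Cumulative share of genes (%) by log2 fold change between the groups, for the 40 members, 102 other ribosome assembly genes and 9316 genes averaging at least 10 CPM; the axis runs from -1 to 1 and genes outside it are not drawn. The medians are -0.18, -0.14 and -0.037.

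Of the MYC family itself, Myc stood at 9.88 and 9.71 CPM in control and 2.09 and 4.0 CPM in Usp28 KO libraries. These rest on 193 and 154 counts in control and 39 and 75 in Usp28 KO libraries. The log2 fold change of Myc was -1.68 ± 0.32 (adjusted p = 0.0715 by edgeR and 0.00314 by DESeq2). Its edgeR adjusted p depended on the setting: 0.28 with GC correction, 7.67e-11 with the replicate number as a block and 0.000642 with both. With 4 libraries the block leaves little replication from which to estimate variation, so the p-values with it rest on a weak basis. The log2 difference between replicates 2 and 1 of Myc was -0.02 in control and 0.94 in Usp28 KO libraries. A block shared by the groups does not describe such values. Mycn, at 214 and 196 CPM in control and 186 and 204 CPM in Usp28 KO libraries, had -0.07 ± 0.16 with overlapping groups. Members with and without an E-box in the window overlapped in their fold changes. The 13 with one had a median log2 fold change of -0.20 (from -0.38 to 0.15), with 11 below 0 and 6 whose groups did not overlap and were lower. The 20 without had -0.15 (from -0.43 to 0.29), with 14 and 9. Of all genes tested, 50.6% were below 0 and 20.4% were lower without overlap. Of genes at 10 CPM or more these were 56.8% and 23.5%.

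The libraries differed in how counts depended on the GC content of transcripts. Across 10701 genes averaging at least 5 CPM, the rank correlation with GC content was -0.351 for the log2 difference between control replicates 2 and 1, and 0.267 for that between the Usp28 KO replicates. Across the 40 members, whose GC content ran from 40.5% to 59.9%, the log2 fold change was rank-correlated with GC content at 0.485. Across those 10701 genes it was at 0.323. The relation differed by replicate number. Between the libraries of replicate 1, Usp28 KO minus control, it was 0.028 in the members and -0.028 across those genes. Between the libraries of replicate 2 it was 0.746 and 0.598. These are descriptions across genes that share the same 4 libraries, and the part of GC content in the members' values was not tested. The 20 members with lower GC content (40.5% to 51.3%) had a median log2 fold change of -0.20 with 19 below 0. The 20 with higher GC content (51.6% to 59.9%) had -0.12 with 12 below 0.

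After correction for GC content the members' median was -0.21, with 36 of 40 below 0, against 54.7% of all genes tested and a median of all genes of -0.035. The median was -0.20 for the lower GC members and -0.25 for the higher. The groups then did not overlap in 22 members that were lower, against 24.4% of all genes tested, and in 0 that were higher, against 19.0%. Corrected shares for genes at 10 CPM or more were not taken, so this background is not matched to the members' levels. By edgeR 0 members and 0.0% of all genes passed in each direction. At an unadjusted p under 0.05, 5 members were lower and 0 higher, against 6.06% and 5.25% of all genes. Among the larger shifts were those of Srm, from -0.19 to -0.42, Tcof1, from -0.14 to -0.36, and Rrp9, from 0.15 to -0.069. The value of Dctpp1 went from 0.29 to 0.09, that of Phb from 0.15 to 0.01 and that of Eif4e from -0.16 to -0.02. Other members of lower GC content also moved toward 0. Nop58 went from -0.40 to -0.29, Npm1 from -0.33 to -0.25, Ncl from -0.26 to -0.19 and Tfb2m from -0.43 to -0.34. Cad, Fbl, Wdr74 and Mrto4, which had been above 0, had -0.053, -0.054, -0.11 and -0.12.

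**Figure D4:**
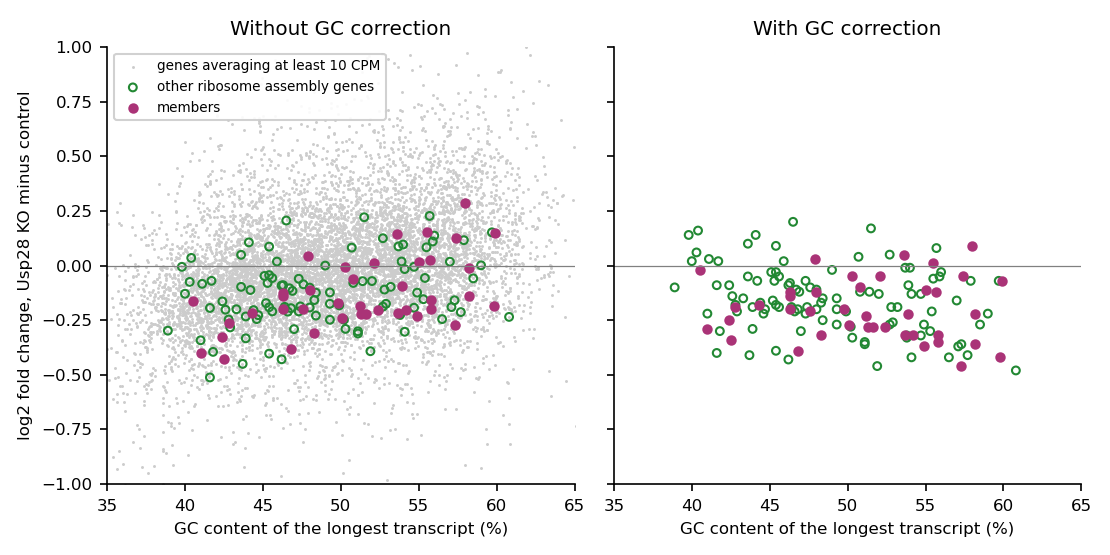
Log2 fold change (Usp28 KO minus control) against GC content of the longest transcript (%), without correction on the left and with it on the right; members are filled, the other ribosome assembly genes open, and genes averaging at least 10 CPM grey (left only; points outside the axes are not drawn). Without correction, members of lower GC content lie lower, and with it 36 of 40 lie below 0.

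Exons of 18 members overlap those of another gene, and without a stated strand setting reads there cannot be assigned with certainty. The longest overlaps were in Apex1 (877 of 1422 exon bases, with Pip4p1 on the opposite strand), Aimp2 (487 of 1654, with Eif2ak1 on the opposite strand) and Nme1 (418 of 3342, with Gm20390 on the same strand). Small nucleolar RNA genes lie within the exons of Ncl, Gnl3 and Nop56. Same-strand overlaps were also present in Nop58 (84 bases, Gm26293), Ppan (165, Gm23008 and Gm24067) and Eif4a1 (287, Gm22988 and Gm24029). Ranbp1 (281, Gm49776) and Eif4e (61, Mir1956) had them too. Mrto4 has 2 annotated pseudogenes named for it, with 225 counts against its own 3458. Npm1 and Ran are also known to have processed copies, and how reads matching several places were counted is not given in the sources used here.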

How the data were processed

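Polyadenylated RNA of 4 libraries was sequenced. The authors deposited 1 table of raw gene counts, laid out as by featureCounts per the file headers. The submitters' processing notes name HISAT2, featureCounts, DESeq2 and mm10 without versions. Strand setting, handling of multiply mapping reads and annotation release: not given in the sources used here. The exon length of each gene is also deposited there.

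Symbols, transcript GC content (longest transcript) and gene types came from GENCODE M21. Of 55401 identifiers, 55141 matched without the version suffix, and all 54349 that matched with it had the same coordinates. Counts were analysed in R 4.3.3 with edgeR 4.0.16: filterByExpr defaults (minimum count 10, minimum total 15) left 15341 genes, TMM (trimmed mean of M values) set the scaling, and the groups were compared by quasi-likelihood with robust estimates. P-values were adjusted by Benjamini-Hochberg over all 15341 genes at a threshold of 0.05. Values are counts per 1000000 (CPM) of the TMM-scaled library. The edgeR fit, alone, with the block and with GC correction, DESeq2 and limma-voom were tested on simulated data. Those data held no pattern by replicate number or GC content, so the rates found may not carry over to these libraries. The edgeR fit alone called 8 of 50 genes changed 1.5-fold and 42 of 50 changed 2-fold, with 14 false calls. The others called 8 to 11 of the 50 changed 1.5-fold.

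The alternatives were DESeq2 1.42.0, limma-voom (limma 3.58.1), 3 other scalings, 2 other filters, removal of mitochondrially encoded genes, a replicate block, offsets for GC content (natural spline, 5 degrees of freedom, fitted in each library), both together, and each library left out. The members and lists were chosen with earlier results of these data known. Values in every library are given for the members with the smallest p in each role group (3 in groups of 5 or more, otherwise 2) and for Ncl, Npm1, Fbl, Nop56, Odc1, Cad and Tert, and for the 3 other ribosome assembly genes with the smallest p in each direction. Rrp12, whose library values are also given, and genes described beyond this rule, by their fold change or by features such as promoter sequence and exon overlap, were chosen after their values were seen, as were the 10 CPM background, the motifs and the split by E-box. Whether a group's libraries are from separate cultures is not in the labels, so p-values measure only how these libraries vary, which may be technical. Promoter sequences are those of RefSeq on GRCm38.p6, the build also called mm10.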

Additional observations from a re-analysis of the deposited data

How the results depend on the processing

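Every one of the 15 alternatives was run. Over all genes the counts called higher and lower, 0 each by edgeR, were 89 and 51 with DESeq2, 18 and 3 with upper-quartile scaling, 24 and 5 with library totals in place of scaling factors, and 204 and 118 with no filter. They ran from 49 to 146 higher and from 31 to 200 lower with any 1 library left out, where the lone library of a group is assumed to vary like the other group. Members called stayed at 0 each way in all of these.

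The labels do not say whether a replicate number marks a shared batch. Across 10701 genes, the difference between replicates 2 and 1 correlated at 0.517 between the groups, a check that rests on 1 pair of differences. With the replicate block, 965 genes were called higher and 716 lower (6.29% and 4.67%), and 3 members lower (Nop58, Npm1 and Utp20) and 0 higher, with 4 other assembly genes lower. With GC correction and the replicate block together these were 858 and 1427 genes (5.59% and 9.3%), 14 members lower and 26 other assembly genes lower. Srm had the smallest adjusted p of these 14 (edgeR, 0.00463). Nop58 and Utp20 were among the 14, and Npm1 was not (edgeR, adjusted p = 0.0689). With 4 libraries the block leaves little replication from which to estimate variation, so calls made with it rest on a weak basis.

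The members' median was -0.12 with upper-quartile scaling and -0.12 with library totals, where the median of all genes was 0.053 and 0.057, and from -0.19 to -0.10 with a library left out. That of the other assembly genes was -0.08 in both scalings and -0.17 with GC correction and the replicate block. Members whose groups did not overlap and were lower numbered 11 with upper-quartile scaling (15.0% of all genes). Those that were higher numbered 2 there (26.1% of all genes) and 2 with at least 50 counts in 2 libraries (20.9%), and 0 with GC correction alone or with the replicate block (19.0% in both). With 1 library left out, so that 1 library stands for a group, 1 to 12 members were higher and 21 to 27 lower. Without control replicate 1 these were 12 and 22 (36.6% and 35.8% of all genes), without control replicate 2 they were 1 and 27 (33.8% and 34.2%), without Usp28 KO replicate 1 they were 3 and 21 (34.9% and 34.7%), and without Usp28 KO replicate 2 they were 7 and 25 (37.3% and 36.5%).

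Of 40 members, 21 were below 0 and 2 above it (Dctpp1 and Tert) in all 16 settings. The sign changed for Bop1 (0.043 with upper-quartile scaling, 0.045 with library totals, 0.0011 with the stricter filter) and Pes1 (0.049, 0.051 and 0.0062). It also changed with GC correction, without and with the block, for Fbl (-0.054 and -0.052), Rrp9 (-0.069 and -0.075), Wdr74 (-0.11 and -0.11), Mrto4 (-0.12 and -0.13) and Cad (-0.053 and -0.052). With a library left out, 17 members changed sign. Their ranges were -0.48 to 0.20 for Aimp2, -0.13 to 0.10 for Bop1, -0.086 to 0.36 for Cad, -0.31 to 0.0010 for Ddx21, -0.38 to 0.084 for Eif4e, -0.075 to 0.090 for Fbl, -0.16 to 0.19 for Mrto4, -0.55 to 0.13 for Nme1 and -0.22 to 0.11 for Nop16. They were -0.072 to 0.047 for Pes1, -0.029 to 0.31 for Phb, -0.40 to 0.045 for Ppan, -0.15 to 0.26 for Ran, -0.42 to 0.053 for Rrp12, -0.046 to 0.37 for Rrp9, -0.32 to 0.016 for Tcof1 and -0.22 to 0.28 for Wdr74. The cause of these changes was not tested. The fewest counts of a member in a library were 195, for Tfb2m.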
